A study of Mus musculus with 36 samples.

Results

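Of the 17716 genes listed for both female and male lungs, 46 genes known to be induced by interferon were followed across the treatments. They were chosen by symbol, as members that had to be present in both count tables (18120 genes in the female table and 18295 in the male table), and all 46 were present. The lungs came from 36 wild-type C57BL/6 mice, 3 females and 3 males in each of 6 groups. The mice were bought at 7 weeks of age and kept for 1 week before dosing. The groups received saline (the control), crude oil from the Macondo well, the dispersant Corexit 9500, the dispersant Corexit 9527, 9500+oil or 9527+oil on days 0, 7 and 13, at 0.1 of the fraction prepared by mixing each agent into saline, and the mice were killed on day 14. The route was intratracheal instillation in the labels and oropharyngeal aspiration in the methods of the study. RNA was from the left lung of single mice. Males and females were treated separately, per the design text of the series, so sex and occasion of treatment cannot be told apart, and each sex was compared with its own saline mice. In whole lung, fewer cells of a type and less RNA per cell cannot be told apart.

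Interferons are cytokines released when cells sense viral or bacterial nucleic acid. Type I and type III interferons act through a complex that holds STAT2 and IRF9 on interferon-stimulated response elements (ISREs), and interferon gamma acts on gamma-activated sites (GAS). In the lung, macrophages, dendritic cells, lymphocytes and the epithelium make and answer these cytokines. The 46 genes were put into 8 groups by role. There were 7 guanylate-binding proteins (GBPs), large GTPases that coat and lyse pathogen-containing vacuoles, and 7 immunity-related GTPases (IRGs), smaller relatives that act on the same vacuoles. There were 18 antiviral effectors (the Ifit, Mx and Oas genes and others), 3 genes of the ubiquitin-like ISG15 system, 4 transcription factors, 3 genes of antigen processing, 3 cytosolic RNA sensors and 1 feedback inhibitor, Socs1. Of the GBP genes, Gbp2, Gbp3, Gbp5 and Gbp7 lie together on chromosome 3 and Gbp4, Gbp6 and Gbp9 on chromosome 5, while Igtp, Irgm1, Irgm2, Ifi47, Tgtp1 and Tgtp2 are on chromosome 11 (GRCm38).

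Many of the promoters carried the letters these factors read. Of the 46 genes, 34 had an entry in a RefSeq promoter table (build GRCm38.p6, 250 bases before to 50 bases after each start site). The ISRE core GAAANNGAAA (N is any base, both strands searched) was in the window of 21 of the 34 genes (61.76%), against 3.99% of all 27025 genes. The GAS core TTCNNNGAA, which reads the same on both strands, was in 11 (32.35%), against 9.55% of all genes. Both cores were counted where they overlapped. By group, the ISRE core was found in 4 of 4 GBP genes, 5 of 6 IRG genes, 7 of 12 antiviral effectors and 0 of 3 antigen processing genes. Gbp4, Gbp6, Gbp9, Iigp1, Mx1, Mx2, Oas2, Usp18, Zbp1, Rtp4, Parp14 and Dhx58 had no entry. The lines below give the 160 bases that end just before the start site, 5′ to 3′ on the strand of the gene, with the ISRE and GAS cores in capitals. They are shown because these genes come up again in the comparisons, as genes with both cores, with the ISRE core only, with the GAS core only or with neither.
Gbp2 (chr3:142620503-142620662, plus strand): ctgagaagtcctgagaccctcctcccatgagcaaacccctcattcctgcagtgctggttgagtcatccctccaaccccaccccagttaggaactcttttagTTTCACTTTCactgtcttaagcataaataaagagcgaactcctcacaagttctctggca
Gbp7 (chr3:142530176-142530335, plus strand): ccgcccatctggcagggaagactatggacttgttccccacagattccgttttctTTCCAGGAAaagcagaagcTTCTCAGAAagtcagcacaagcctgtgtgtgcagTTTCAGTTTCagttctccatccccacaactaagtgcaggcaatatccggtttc
Igtp (chr11:58199396-58199555, plus strand): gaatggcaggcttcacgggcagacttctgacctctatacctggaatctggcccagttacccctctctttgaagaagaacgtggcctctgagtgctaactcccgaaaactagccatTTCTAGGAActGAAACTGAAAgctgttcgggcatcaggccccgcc
Irgm2 (chr11:58214817-58214976, plus strand): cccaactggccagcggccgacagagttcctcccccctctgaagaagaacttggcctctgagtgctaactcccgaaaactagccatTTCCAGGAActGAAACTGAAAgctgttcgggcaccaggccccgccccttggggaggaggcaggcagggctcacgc
Tgtp1 (chr11:48992247-48992406, minus strand): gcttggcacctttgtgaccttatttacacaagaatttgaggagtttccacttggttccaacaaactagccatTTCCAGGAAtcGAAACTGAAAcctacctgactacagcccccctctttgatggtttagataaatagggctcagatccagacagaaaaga
Tgtp2 (chr11:49064213-49064372, minus strand): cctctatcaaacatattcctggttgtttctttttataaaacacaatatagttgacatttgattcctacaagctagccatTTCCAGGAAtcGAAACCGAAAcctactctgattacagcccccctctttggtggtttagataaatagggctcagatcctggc
Isg15 (chr4:156200819-156200978, minus strand): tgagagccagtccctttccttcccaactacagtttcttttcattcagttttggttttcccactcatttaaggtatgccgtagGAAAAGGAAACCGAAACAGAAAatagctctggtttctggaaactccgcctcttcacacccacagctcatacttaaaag
Oas3 (chr5:120777660-120777819, minus strand): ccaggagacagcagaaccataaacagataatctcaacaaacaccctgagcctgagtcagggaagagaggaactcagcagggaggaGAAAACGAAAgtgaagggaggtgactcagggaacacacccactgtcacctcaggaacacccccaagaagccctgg
Irf1 (chr11:53769854-53770013, plus strand): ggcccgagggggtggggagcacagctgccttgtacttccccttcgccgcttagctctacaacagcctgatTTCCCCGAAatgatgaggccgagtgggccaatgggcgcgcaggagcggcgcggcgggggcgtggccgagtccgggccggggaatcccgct
Irf7 (chr7:141266425-141266584, minus strand): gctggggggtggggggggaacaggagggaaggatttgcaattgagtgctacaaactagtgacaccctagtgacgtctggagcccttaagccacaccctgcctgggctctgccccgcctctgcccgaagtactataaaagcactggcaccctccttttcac
In Igtp, Irgm2, Tgtp1 and Tgtp2 the GAS core was followed after 2 bases by the ISRE core. This arrangement was found in 5 of 27025 genes (0.0185%), and the other gene was Gm12185. Its distance from the start site differed between these genes, with the GAS core beginning 45 bases upstream in Igtp, 75 in Irgm2, 88 in Tgtp1 and 81 in Tgtp2. Tgtp1 and Tgtp2 are near copies, and the printed stretches of Igtp and Irgm2 are almost the same around the cores. These genes are therefore not separate cases of the arrangement. Gbp7 held GAS cores 106 and 87 bases and an ISRE core 53 bases upstream. Isg15 held 3 overlapping ISRE cores between 78 and 66 bases upstream. The window of Irf7 held neither core. A match of letters is a description and not a binding site.

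Each library held 17501716 to 30014986 counts, and levels are given below as CPM, counts scaled to a common library size with TMM factors. In 4 female libraries (saline mouse 3, oil mouse 6, 9527 mouse 11 and 9500+oil mouse 14) mitochondrial transcripts took 20.67% to 45.09% of the counts, against 5.27% to 11.34% in the other 32. In the same 4 libraries GC-rich genes were low and GC-poor genes were high, with a difference of -3.58 to -2.33 on the log2 scale against -0.75 to 0.22 in the others. Alveolar epithelium markers, which identify lung, summed to 19800 to 20200 CPM in saline males and 8180 to 20200 in saline females. The members followed the GC pattern. In saline mouse 3 the 23 GC-richer members had a median of -1.71 against the other females (log2), the 23 GC-poorer members had a median of 0.85, and the extremes were Ifi47 at -8.03 and Ifi44 at 3.41. In 9527 mouse 11 the same medians were -0.98 and 0.49. Among the other 32 libraries, female oil mouse 4 had the strongest GC difference (-0.75, with 9.39% mitochondrial counts and a Spearman rho of -0.62 over the members), followed by female 9527 mouse 12 (-0.54, 9.5% and -0.27). Since saline mouse 3 is 1 of 3 female controls, female results are given with all mice and without these 4 libraries, and the part of RNA quality in them was not tested.

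**Figure D1:**
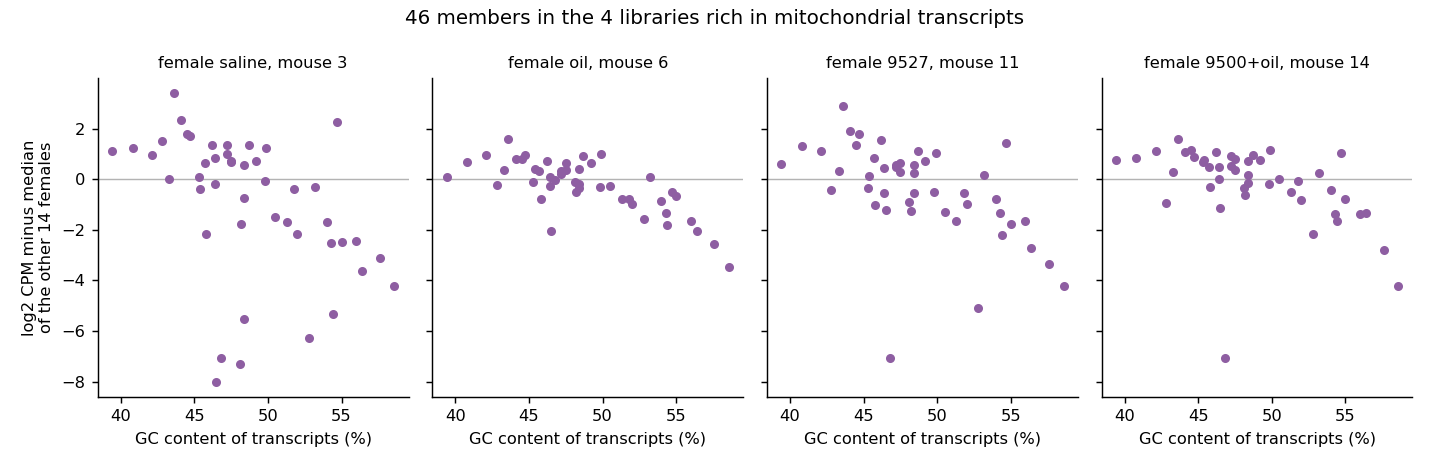
Each panel is 1 of the 4 female libraries rich in mitochondrial transcripts, and each point is 1 of the 46 members, with the GC content of its transcripts (%) on the x axis and its log2 CPM minus the median of the other 14 females on the y axis. Points fall from upper left to lower right, with Spearman rho from -0.67 to -0.55 over the 46 members (range in the other 32 libraries -0.62 to 0.40).

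Some members were counted as 0 in single libraries, which allows up to 3 counts (0.101 to 0.171 CPM in these libraries, counting error only). Gbp4 was at 0 in 6 libraries, namely female saline mouse 3, 9500 mouse 7, 9527 mouse 11 and 9500+oil mouse 14 and male oil mouse 6 and 9527 mouse 11. Socs1 was at 0 in 3 and Ifi47, Isg15, Mx1 and Usp18 in 1 each, all of these among the same 4 female libraries. Several members are near copies of other genes, so that reads can be split between them. The share of 31-base words also found in another gene was 90.5% for Tgtp2 and 84.4% for Tgtp1 (shared with each other), 74.2% for Gbp6, 68.8% for Oas1a and 61.8% for Ifit3, and over 10% in 15 of the 46 members. The levels of those genes are uncertain in that respect.

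All 46 members had counts in every saline male. In males, the level per kilobase of exon was highest for Bst2 (39.8 CPM per kilobase), the tetherin that holds budding virus at the membrane. It was followed by Irf1 (33.4), Gbp2 (32.2) and Ifit3 (28.5), and was lowest for Gbp6 (0.869) and Socs1 (0.644). The interferon genes themselves were barely seen. Of 11 interferon ligand genes looked for, Ifng was the 1 listed, with 0 to 14 counts per male library, too few for any comparison within a sex. It passed the filter on low counts in 9527+oil against 9527 over both sexes, with a log2 fold change of -0.33.

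In male mice given Corexit 9500, 43 of the 46 members had a negative log2 fold change against saline males and 3 a positive one, and the median was -0.29 against -0.01 over the 15116 genes tested. With edgeR (quasi-likelihood test, Benjamini-Hochberg adjustment over all genes), 0 members passed an adjusted p of 0.05, against 0.00662% of all genes. At an unadjusted p under 0.05, 15 members (32.6%) were lower, against 2.36% of all genes, and 0 were higher, against 4% of all genes. In 16 members (34.8%) every 9500 mouse was below every saline mouse, against 5.35% of all genes, and in 0 members was every 9500 mouse above, against 6.35%. DESeq2, run on the same counts, placed 2 members, Gbp4 and Tgtp2, past an adjusted p of 0.05. When 1 of these 6 mice was left out, 11 to 20 members were lower at an unadjusted p under 0.05 and the median was between -0.35 and -0.22.

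The GTPases made up most of the genes with an unadjusted p under 0.05. Of the 7 GBP genes, 7 had a negative fold change with a median of -0.30, and 4 had an unadjusted p under 0.05. Of the 7 IRG genes, 6 had a negative fold change with a median of -0.42, and 5 had an unadjusted p under 0.05. Gbp4, a GBP of the chromosome 5 cluster, was at 16.1, 9.62 and 17.7 CPM in the saline males and at 5.7, 3.72 and 6.22 in the 9500 males. The groups did not overlap, and the log2 fold change was -1.47 ± 0.27 (SE, n = 3 and 3; edgeR adjusted p = 0.609; DESeq2 adjusted p = 0.00017). Gbp4 was however spread over the whole range in other groups, with 21.9, 12.1 and 0 in oil males and 5.31, 0 and 25.3 in 9527 males. In 9500+oil males it was at 16.7, 17.4 and 6.21, and in 9527+oil males at 17.4, 8.75 and 10.2.

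Gbp7, which takes part in the killing of bacteria in macrophages, was at 67.9, 72.8 and 78.2 in saline males and 56.5, 62.7 and 57.7 in 9500 males, a narrow difference without overlap (log2 -0.31 ± 0.09, edgeR adjusted p = 0.755). It was at 69.8, 61.6 and 62.1 in oil males, 61.6, 64.2 and 67.6 in 9527 males and 64.8, 76 and 71.1 in 9500+oil males. In 9527+oil, mouse 16 stood out at 112 beside 66.9 and 73.9. Gbp2 (log2 -0.30 ± 0.09) and Gbp5 (-0.48 ± 0.16), a GBP that promotes inflammasome assembly, were also below every saline male in the 9500 males, with Gbp5 at -0.32 without saline mouse 1.

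Tgtp2, an IRG loaded onto vacuoles of intracellular parasites, was at 41.1, 55.2 and 48.2 in saline males and at 28.6, 26.6 and 35.6 in 9500 males. All 3 treated mice were below all 3 controls (log2 -0.67 ± 0.15, edgeR adjusted p = 0.609; DESeq2 adjusted p = 0.0141). Tgtp2 was at 49.8, 53.4 and 27 in oil, 37.5, 58.9 and 36.2 in 9527, 36.5, 43.8 and 43.8 in 9500+oil and 63.1, 47.4 and 36 in 9527+oil males, all of which overlapped saline. The other lower IRG genes included Irgm1, which regulates the loading of the effector IRGs, at 40.4, 37.5 and 36.8 in saline and 30.8, 27.9 and 29 in 9500 males (log2 -0.39 ± 0.09, edgeR adjusted p = 0.688). Ifi47 (-0.42 ± 0.11) and Igtp (-0.45 ± 0.15) were likewise below every control, and Irgm2 (-0.40 ± 0.17) was lower with overlapping groups. Without saline mouse 2 Igtp was at -0.28 and Irgm2 at -0.19, the latter no longer at an unadjusted p under 0.05. Igtp and Irgm2 overlap in the annotation and their reads may be shared. Of the 4 IRG genes printed above with a GAS core next to an ISRE core, Igtp, Irgm2 and Tgtp2 were thus lower in 9500 males at an unadjusted p under 0.05. The fourth, Tgtp1, was at 13.6, 18 and 8.98 in saline and 11.2, 11.1 and 6.55 in 9500 males, with overlap. Irgm1, with the ISRE core only, and Ifi47, with neither core, were lower too, so the lower IRG genes were not only those with this arrangement.

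**Figure D2:**
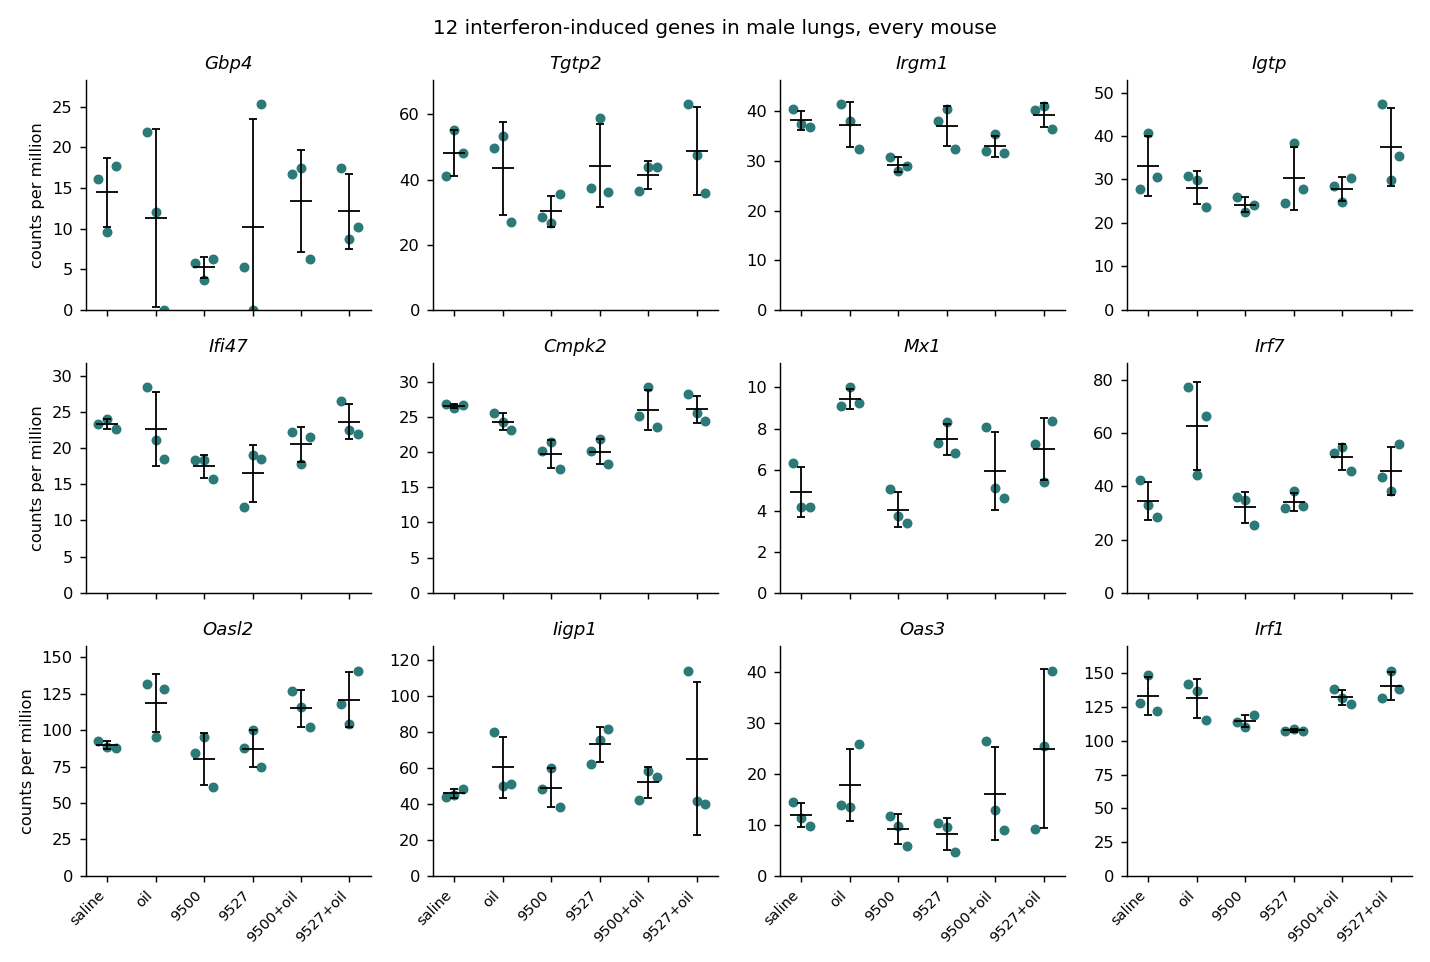
CPM (y axis, from 0) of 12 members in the 18 male mice by treatment (x axis). Points are single mice, and the bar and whiskers are the mean ± SD of 3 mice. In 9500 mice Gbp4 sits at 3.72 to 6.22 and Tgtp2 at 26.6 to 35.6, below all saline mice, and in oil mice Mx1 sits at 9.11 to 10, above all saline mice.

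Outside the GTPases the differences in 9500 males were smaller, with a median of -0.26 over the other 32 members and 6 of them lower at an unadjusted p under 0.05. Of 18 antiviral effectors, 17 had a negative fold change. Cmpk2, a mitochondrial nucleotide kinase next to Rsad2, was at 26.8, 26.3 and 26.7 in saline males and 20.2, 21.5 and 17.6 in 9500 males. The groups did not overlap (log2 -0.43 ± 0.11, edgeR adjusted p = 0.688). Xaf1, Parp14 and Ifit1 were also lower at an unadjusted p under 0.05, with log2 fold changes between -0.31 and -0.28.

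In the ISG15 system, 3 of 3 genes had a negative fold change in 9500 males, none of them with an unadjusted p under 0.05. Usp18, the protease that removes ISG15 and blocks the type I receptor, was at 20.2, 14.2 and 17.5 in saline and 15.1, 12.7 and 14 in 9500 males (log2 -0.31 ± 0.15, edgeR adjusted p = 0.782), and the groups overlapped. Among the transcription factors, Irf9, the DNA-binding part of the type I complex, was lower at an unadjusted p under 0.05 and without overlap (log2 -0.23 ± 0.10, edgeR adjusted p = 0.782). Irf1, which drives many gamma-induced genes, was at 128, 149 and 122 in saline and 114, 110 and 119 in 9500 males. The groups did not overlap but the difference was small (log2 -0.22, edgeR adjusted p = 0.782). Of the RNA sensors, Ddx58, which encodes RIG-I, was at 102, 91.8 and 95.1 in saline and 87.4, 77.9 and 82.3 in 9500 males, again without overlap (log2 -0.22 ± 0.09, edgeR adjusted p = 0.782). Antigen processing genes differed least, with a median of -0.08. Socs1, which is induced by interferon and inhibits the receptor kinases, had a positive value of 0.34 ± 0.33 on the log2 scale (edgeR adjusted p = 0.875).

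In male mice given oil, 29 members had a positive and 17 a negative fold change against saline males, and the median was 0.10 against -0.01 over 14914 genes. It was -0.02 without oil mouse 4 and 0.06 to 0.18 without any other of these mice. Again 0 members passed an adjusted p of 0.05 in edgeR (0.00671% of all genes did), while DESeq2 placed 2, Irf7 and Mx1, past it. At an unadjusted p under 0.05, 5 members (10.9%) were higher against 5.75% of all genes and 0 lower against 2.45%. Every oil male was above every saline male in 7 members (15.2%, against 7.44% of all genes) and below in 1, Cmpk2 (2.17%, against 5.38%).

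Mx1, a GTPase that traps viral nucleocapsids (the C57BL/6 allele is known to make no working protein), was at 6.32, 4.2 and 4.2 in saline males and 9.11, 10 and 9.23 in oil males. The oil males were close to each other and well above the controls (log2 0.94 ± 0.20, edgeR adjusted p = 0.273; DESeq2 adjusted p = 0.0127). Mx1 was at 5.03, 3.72 and 3.4 in 9500, 7.31, 8.3 and 6.83 in 9527, 8.09, 5.08 and 4.61 in 9500+oil and 7.23, 5.39 and 8.37 in 9527+oil males. Irf7, which amplifies interferon transcription, was at 42.5, 32.8 and 28.6 in saline and 77.1, 44.4 and 66.3 in oil males. Oil mouse 5 lay just above the highest control and the other oil mice far above (log2 0.85 ± 0.21, edgeR adjusted p = 0.319; DESeq2 adjusted p = 0.0122). Irf7 was at 35.9, 34.8 and 25.4 in 9500 and 31.9, 38.1 and 32.7 in 9527 males, within the saline range or just below it.

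Rtp4, a receptor transporter induced by type I interferon, was at 4.78, 3.1 and 4.06 in saline and 8.15, 5.09 and 9.13 in oil males (log2 0.90 ± 0.27, edgeR adjusted p = 0.408). Oasl2, a 2'-5' oligoadenylate synthetase-like gene, was at 92.9, 88.4 and 88 in saline and 132, 95.5 and 128 in oil males (log2 0.40 ± 0.13, edgeR adjusted p = 0.453). Zbp1, a sensor of Z-form nucleic acid, was higher by 0.33 ± 0.12 on the log2 scale. Of the 14 GTPases, 5 had positive and 9 negative values, with a median of -0.04 and 0 at an unadjusted p under 0.05.

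Male mice given Corexit 9527 showed members on both sides. The median was -0.09 against -0.01 over 14919 genes, with 13 positive and 33 negative values. It was -0.18 without 9527 mouse 11, 0.01 without 9527 mouse 12, -0.04 without saline mouse 1 and -0.06 without 9527 mouse 10. In edgeR 0 members passed an adjusted p of 0.05 (0.114% of all genes did). At an unadjusted p under 0.05, 2 members (4.35%) were higher against 7.96% of all genes, and 4 (8.7%) were lower against 5.78%. Every 9527 male was above every saline male in 3 members (6.52%, against 10.5% of all genes) and below in 7 (15.2%, against 9.59%). These shares are near those of all genes. Without 9527 mouse 11 the lower members numbered 8, and without saline mouse 1, saline mouse 2 or 9527 mouse 10 they numbered 2.

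Iigp1, an IRG that disrupts parasite vacuoles, had the smallest p of any member over the comparisons with saline. It was at 43.9, 45.1 and 48.4 in saline and 62.1, 75.2 and 81.5 in 9527 males, without overlap (log2 0.67 ± 0.12, edgeR adjusted p = 0.0662). DESeq2 gave an adjusted p of 0.000152, and edgeR gave 0.046 when only genes with at least 10 counts in every mouse were kept. Iigp1 was at 79.9, 50 and 50.8 in oil, 48.2, 60.1 and 38.3 in 9500, 42.1, 58.4 and 55 in 9500+oil and 114, 41.6 and 39.7 in 9527+oil males, so that single mice were high in other groups too. Mx1 was also higher in 9527 males (log2 0.61 ± 0.23, edgeR adjusted p = 0.291).

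Irf1 was at 107, 109 and 107 in 9527 males, below the 122 to 149 of saline (log2 -0.30 ± 0.10, edgeR adjusted p = 0.238). Cmpk2 was at 20.1, 21.8 and 18.3, as low as in 9500 males (log2 -0.40 ± 0.11, edgeR adjusted p = 0.172). Ifi47 (-0.50 ± 0.18, and -0.31 without 9527 mouse 10) and Irf9 (-0.25 ± 0.10) were also lower at an unadjusted p under 0.05. Socs1 was at 1.69, 2.21 and 1.71 in saline and 2.5, 3.45 and 2.33 in 9527 males, above without overlap at a level near the lowest of all members (log2 0.56 ± 0.32, edgeR adjusted p = 0.479). Socs1 values in the other treated males ran from 1.6 to 4.68.

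The 5 male comparisons share their 3 saline mice, so values common to several of them are not independent. Cmpk2 is the plainest case, since its 3 controls lay between 26.3 and 26.8 CPM.

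In males given the mixtures with oil few members had an unadjusted p under 0.05. In 9500+oil males the median of the members was -0.01 with 19 positive and 27 negative values, 0 passed an adjusted p of 0.05 (0% of 14889 genes did), and at an unadjusted p under 0.05 2 members (4.35%) were higher against 5.19% of all genes and 0 lower against 4.04%. Without saline mouse 1 there were 3 higher and 4 lower, and without 9500+oil mouse 13 there were 4 higher and 2 lower. The 2 higher with all mice were Irf7, at 52.6, 54.9 and 45.7 (log2 0.56 ± 0.15, edgeR adjusted p = 0.506), and Oasl2, at 127, 116 and 102 (log2 0.36 ± 0.10, edgeR adjusted p = 0.506). Both were above every saline male. Isg15, the ubiquitin-like modifier itself, was at 6.67, 6.36 and 5.46 in saline and 8.43, 6.85 and 7.62 in 9500+oil males, also above without overlap (log2 0.31 ± 0.17, edgeR adjusted p = 0.594). Irf7, Oasl2 and Isg15 were the 3 members (6.52%) with every 9500+oil male above every saline male. In 3 others (6.52%) every 9500+oil male was below every saline male. The matching shares of all genes were not computed for the mixtures.

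In 9527+oil males the median was 0.11 with 36 positive and 10 negative values, against -0.00 over the 14954 genes tested. Again 0 passed an adjusted p of 0.05 (0.00669% of 14954 genes did), and at an unadjusted p under 0.05 2 members (4.35%) were higher against 3.54% of all genes and 0 lower against 2%. Without saline mouse 1 or 9527+oil mouse 17, 6 were higher. The median was 0.05 without 9527+oil mouse 16 and 0.19 without mouse 17. Oasl2 was at 118, 104 and 141 (log2 0.43 ± 0.12, edgeR adjusted p = 0.885). Oas3, which makes the 2'-5' oligoadenylates that activate RNase L, was at 14.5, 11.4 and 9.88 in saline and 9.14, 25.4 and 40.3 in 9527+oil males, a wide spread that overlapped saline (log2 1.06 ± 0.44, edgeR adjusted p = 0.885), and its fold change was 0.53 without 9527+oil mouse 18. Psmb9, a subunit of the immunoproteasome, was at 31.3, 25.4 and 22.9 in saline and 34.7, 32.3 and 28.3 in 9527+oil males (log2 0.26 ± 0.15, edgeR adjusted p = 0.891). Tap1, which carries peptides into the endoplasmic reticulum, was at 82, 73.8 and 66.5 in saline and 103, 83.7 and 74 in 9527+oil males (log2 0.23 ± 0.14, edgeR adjusted p = 0.891). Both overlapped saline.

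Other genes of the interferon pathway were read from lists of receptors, signalling genes, interferon regulatory factors, sensors and further induced genes, of which 75 of 91 were in both tables. In 9500 males, 0 of 6 receptors, 0 of 4 other interferon regulatory factors and 0 of 12 sensors and adaptors had an unadjusted p under 0.05. Of the further induced genes, 6 of 47 were lower (2.36% of all genes were) and 0 higher, led by Trim21, an antibody receptor of the cytosol (log2 -0.34 ± 0.10, edgeR adjusted p = 0.755). In oil males 10 of the 47 further induced genes, 4 of 12 sensors and 2 of 4 other interferon regulatory factors were higher at an unadjusted p under 0.05, against 5.75% of all genes, and 0 were lower. Of the further induced genes 2 were higher and 4 lower in 9527 males (7.96% and 5.78% of all genes), 3 of 46 higher and 2 lower in 9500+oil males (5.19% and 4.04%) and 2 of 47 higher and 2 lower in 9527+oil males (3.54% and 2%). Of the 12 sensors, 2 were higher in 9527, 2 in 9500+oil and 1 in 9527+oil males, and Tlr9, an endosomal DNA sensor, was among them in each (log2 0.43 ± 0.14, 0.43 ± 0.18 and 0.51 ± 0.14) and in oil males (0.83 ± 0.13). Of the 4 other interferon regulatory factors, Irf3 was lower in 9527 males (-0.58 ± 0.18) and Irf2 higher in 9500+oil (0.26 ± 0.10) and 9527+oil males (0.31 ± 0.12). Among the 6 receptors, 1 was higher in 9500+oil males, Ifnlr1 (0.40 ± 0.12), and 0 had an unadjusted p under 0.05 in the other male groups. Cxcl9, a T cell attractant induced by interferon gamma, was at 0.697, 0.946 and 0.677 in saline and 5.7, 3.52 and 4.15 in oil males (log2 2.52 ± 0.32, edgeR adjusted p = 0.106). It was at 1.15, 2.96 and 3.62 in 9527 males, also above saline (log2 1.74 ± 0.48, edgeR adjusted p = 0.172). In saline females Cxcl9 was at 5.52, 8.55 and, in mouse 3 of the 4 libraries, 36.8. It was lower in 9500 females, at 3.89, 2.21 and 4.32 (log2 -2.29 ± 0.83, edgeR adjusted p = 1), and in 9527+oil females, at 1.43, 0.856 and 2.9 (log2 -3.31 ± 0.94, edgeR adjusted p = 0.914), with all treated mice below all saline mice. Without the 4 libraries these were -1.02 ± 0.42 (edgeR adjusted p = 1, no longer at an unadjusted p under 0.05) and -2.02 ± 0.45 (edgeR adjusted p = 0.314). Cxcl10, of the same list, was lower at an unadjusted p under 0.05 in 9500+oil females (-1.71 ± 0.60) and 9527+oil females (-1.71 ± 0.48). Without the 4 libraries it was at -1.75 ± 0.48 and -1.65 ± 0.37. No other gene of these lists had an unadjusted p under 0.05 in females with all mice. For each of these genes the adjusted p of edgeR was over 0.05.

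Markers of cell types moved in some of the same male groups. In oil males 6 of 8 macrophage and monocyte markers tested were higher at an unadjusted p under 0.05, with their summed level at 6170 to 8200 CPM against 5770 to 6200 in saline, and 3 of 6 neutrophil markers were higher, at 288 to 895 against 226 to 254. Also in oil males 4 of 5 heart muscle markers were lower, at 214 to 259 against 268 to 432, 1 of 5 erythrocyte markers was lower and 2 of 5 fibroblast markers were higher. In 9500 males 5 of 5 erythrocyte markers were lower, at 5730 to 7660 against 7530 to 12600, and 2 of 5 fibroblast markers were higher, while 0 of 8 macrophage and monocyte, 0 of 9 T cell, 0 of 9 NK cell, 0 of 5 B cell and 0 of 6 plasmacytoid dendritic cell markers had an unadjusted p under 0.05. The summed macrophage and monocyte level was 5370 to 6280 there. T cell markers were at 71.1 to 94.5 against 71.4 to 102, and NK cell markers at 58.4 to 77.5 against 54 to 83.3. In 9527 males 5 of 5 erythrocyte markers were lower, at 2720 to 6780, and 2 of 8 macrophage and monocyte markers higher. Endothelium markers were lower there in 3 of 5 (3400 to 3840 against 4150 to 4700), heart muscle markers lower in 2 of 5 (172 to 329) and fibroblast markers higher in 3 of 5 (2960 to 3440 against 2300 to 2590). In 9527+oil males 5 of 6 neutrophil markers were higher, at 217 to 1170, and 2 of 8 macrophage and monocyte markers. The part of these cells in the levels of the members was not tested.

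In females no treatment gave members past an adjusted p of 0.05 in edgeR, and 0% of all genes passed in each of the 5 comparisons. At an unadjusted p under 0.05 there were 0 members for oil (0.108% of all genes), 0 for 9500 (0.364%), 0 for 9527 (0.267%), 1 for 9500+oil (0.155%) and 1 for 9527+oil (1.1%). The 1 member in 9500+oil females was Tgtp1, at 21.8, 23.2 and 32.5 in saline and 12.7, 17.9 and 10.5 in 9500+oil (log2 -0.98 ± 0.40, edgeR adjusted p = 1). The 1 member in 9527+oil females was Irgm2, at 68.1, 72 and 66.9 in saline and 103, 85.3 and 109 in 9527+oil (log2 0.51 ± 0.20, edgeR adjusted p = 0.914). In both cases the treated mice were apart from saline. Ifih1, the RNA sensor MDA5, had its largest difference in 9527+oil females, at 54.9, 43.9 and 160 in saline and 48.9, 45.5 and 37.2 after treatment. This difference (edgeR adjusted p = 0.914) came with the saline mouse 3 value of 160, from 1 of the 4 libraries set apart.

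Without those 4 libraries the female comparisons rest on 2 saline mice, and 0 members passed an adjusted p of 0.05 in any of them (0.0132% of all genes did for 9527+oil and 0% for the others). For oil, 2 members were higher at an unadjusted p under 0.05 and 0 lower (0.959% of all genes), with a median of 0.12. For 9500, 0 were higher and 2 lower (1.64%), with a median of -0.11 and 32 of 46 negative. For 9527, 1 was higher and 1 lower (4.98%). For 9500+oil, 0 were higher and 8 lower (1.24%), with a median of -0.23 and 40 of 46 negative. For 9527+oil, 2 were higher and 3 lower (12.3%).

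The 8 lower members in 9500+oil females were Gbp4, Gbp5, Gbp9, Igtp, Tgtp1, Mx1, Zbp1 and Dhx58. Tgtp1 had a log2 fold change of -0.95 ± 0.18 (edgeR adjusted p = 1), and Gbp4, at 14.4 and 14.7 in saline and 8.58 and 3.19 in 9500+oil, had -1.30 ± 0.42 (edgeR adjusted p = 1). In 9500 females Tgtp2 was at 43.5, 46.7 and 43.9, below the 61.6, 56.9 and 60.4 of saline, including saline mouse 3 (log2 -0.41 ± 0.16, edgeR adjusted p = 1, without the 4 libraries). In 9527+oil females Irgm2 was higher by 0.50 ± 0.13 and Gbp7 by 0.43 ± 0.12, while Mx1 (-0.70 ± 0.25), Usp18 (-0.45 ± 0.16) and Dhx58 (-0.39 ± 0.16) were lower.

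**Figure D3:**
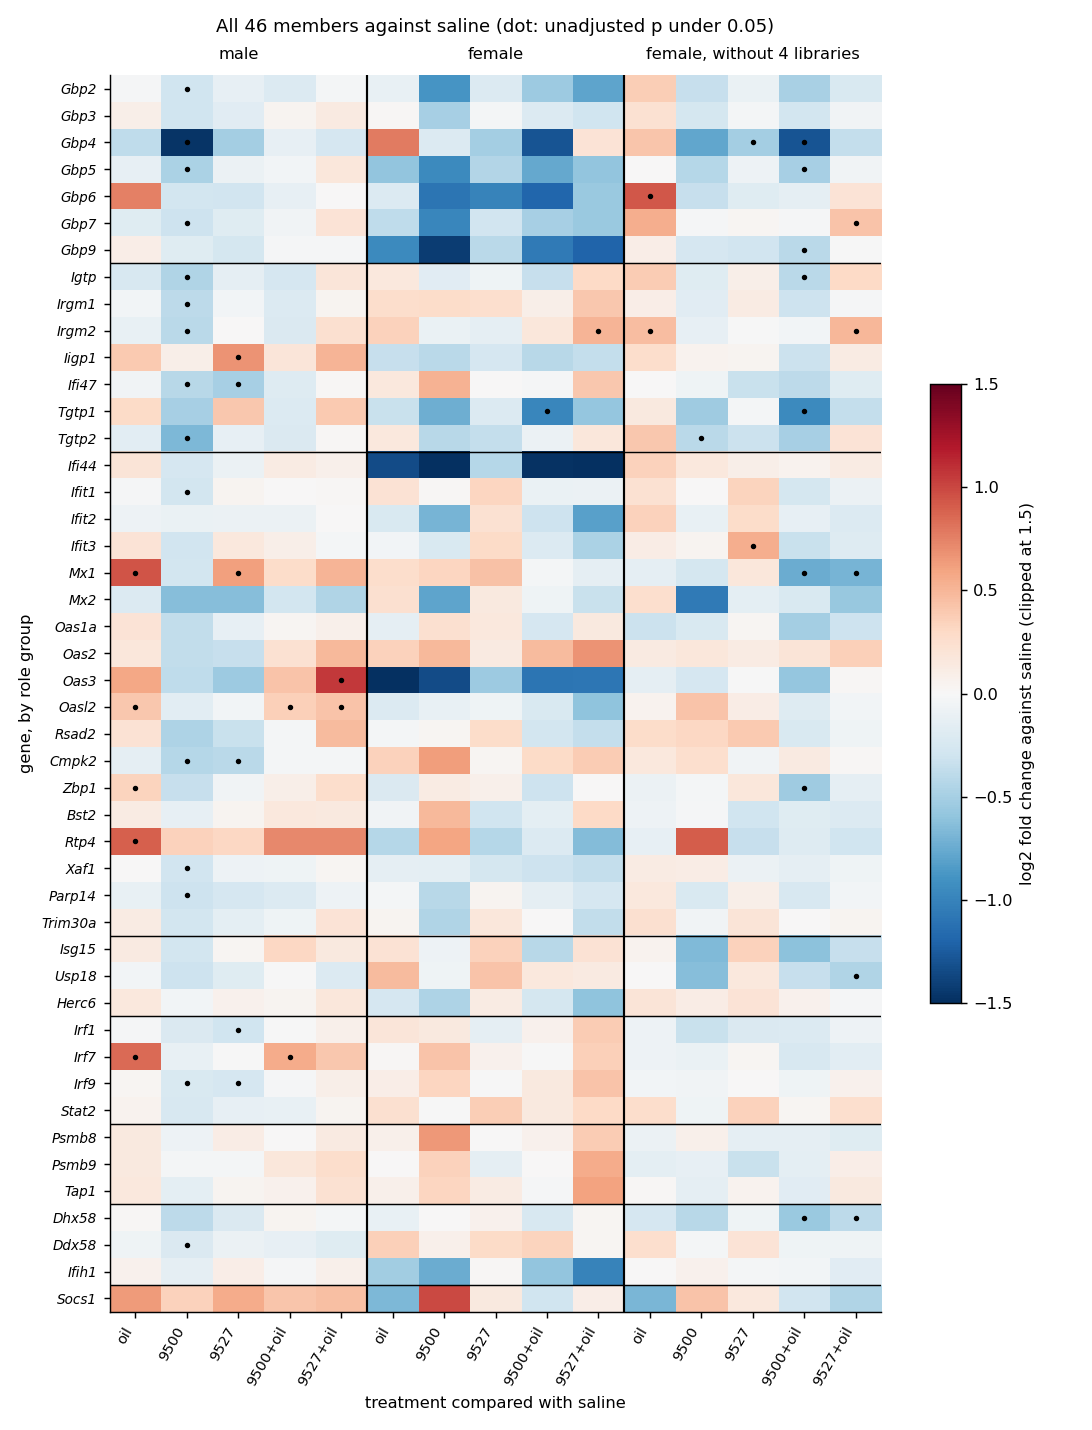
Log2 fold change of each of the 46 members (y axis, ordered by role) against saline for 5 treatments (x axis) in males, in females and in females without the 4 libraries, with colours clipped at 1.5 and a dot where the unadjusted edgeR p is under 0.05. The male 9500 column is blue for 43 of 46 members and holds 15 dots, and the female columns with all mice hold 2 dots in all.

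The level of the members as a whole was read in each mouse as the median over members of log2 CPM less the mean of the saline mice, which in females were mice 1 and 2. It was -0.17, -0.26 and -0.34 in the 9500 males, against 0.08, -0.02 and -0.09 in the saline males. It was -0.20, -0.08 and -0.16 in the 9500 females. For the 14 GTPases alone it was -0.32, -0.47 and -0.37 in the 9500 males and -0.38, -0.21 and -0.25 in the 9500 females. All 6 mice given 9500 were thus below the saline mean for the GTPases, and 11 to 14 of the 14 genes were below it in each of them. This was not particular to 9500. In 9500+oil females the GTPases were at -0.22 and -0.50 in mice 13 and 15 (0.48 in mouse 14, from the set of 4), and 14 of 14 had a negative fold change without the 4 libraries. In 9500+oil males they were at -0.10, -0.13 and -0.12. In oil females the GTPases were at 0.30 and 0.23 in mice 4 and 5 and at -0.04 in mouse 6, from the set of 4, whereas oil males were at 0.22, -0.02 and -0.26. Oil mouse 4 is the female with a GC difference of -0.75, and the part of this in its level was not tested.

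Female 9527 mice 10 and 12 lay on either side of saline. Mouse 10 was at 0.39 and mouse 12 at -0.56 over the 46 members. In 46 of 46 members mouse 10 was above mouse 12, with a median difference of 0.76 (SD 0.55 over members) against -0.03 over 12812 genes, of which 47.4% were higher in mouse 10. These mice were picked out after their values were seen. Mouse 10 also had more of several lymphoid and myeloid markers, with summed levels in mice 10 and 12 of 223 and 86.3 for B cells, 113 and 65.2 for T cells, 80.5 and 43.7 for NK cells and 116 and 55.4 for neutrophils. Macrophage and monocyte markers went the other way, at 3650 and 5120. The GC difference was 0.01 in mouse 10 and -0.54 in mouse 12, and mitochondrial counts were 6.58% and 9.5%. The part of these cells and of RNA quality was not tested.

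**Figure D4:**
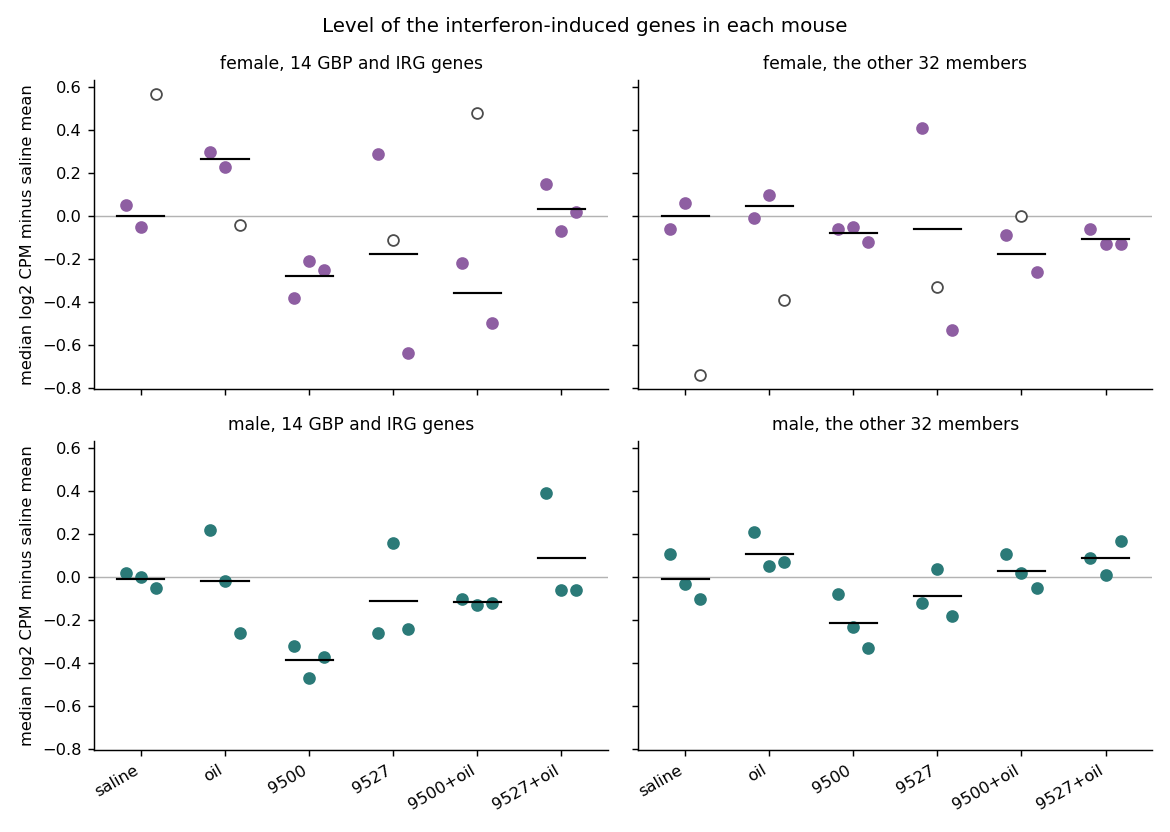
Each point is 1 mouse, with the median log2 CPM of the 14 GBP and IRG genes (left) or the other 32 members (right) less the saline mean on the y axis, by treatment (x axis) and sex, open circles for the 4 libraries rich in mitochondrial transcripts and a line for the mean of the other mice. The 9500 mice lie at -0.47 to -0.32 in males and -0.38 to -0.21 in females for the GTPases, and female 9527 mice 10 and 12 lie at 0.29 and -0.64.

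With both sexes in 1 fit and sex as a term, 0 members passed an adjusted p of 0.05 in any of the 5 comparisons with saline in edgeR, against 0.0326% of all genes for 9527 and 0% for the other treatments. At an unadjusted p under 0.05, 9500 gave 6 lower members (13%, against 2.3% of all genes in either direction) and 0 higher ones, with a median of -0.19 against 0.03 over 15422 genes. They were Gbp2 (-0.60 ± 0.24), Gbp3 (-0.40 ± 0.15), Gbp5 (-0.72 ± 0.25), Tgtp1 (-0.62 ± 0.22), Tgtp2 (-0.55 ± 0.13) and Parp14 (-0.36 ± 0.15). Saline mouse 3 is the 1 library of the 4 in this comparison, and without it Gbp2 was at -0.32 and Gbp5 at -0.46. Tgtp2 had the smallest p (edgeR adjusted p = 0.972; DESeq2 adjusted p = 0.0204). It was the 1 member in which every 9500 mouse was below every saline mouse of its sex, which held for 0.357% of all genes, and in 0 members was every 9500 mouse above, which held for 0.648%. Without the 4 libraries, 12 members were lower and 0 higher (5.62% of all genes in either direction), 41 of 46 were negative, and Tgtp2 was at -0.55 ± 0.11 (edgeR adjusted p = 0.626). This is the same fit as leaving out saline mouse 3 alone.

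For the other treatments the counts at an unadjusted p under 0.05 were 0 for oil (0.442% of all genes), 0 for 9527 (2.86%), 1 lower for 9500+oil (0.418%) and 2 higher for 9527+oil (2.99%). The last were Irgm2 (0.37, edgeR adjusted p = 0.837) and Oas2 (0.58, edgeR adjusted p = 0.837), and the lower 1 was Tgtp1 (-0.55 ± 0.24). With a mouse left out there were 0 to 1 higher for oil, 0 to 2 lower for 9500+oil, and 0 to 4 higher and 0 to 2 lower for 9527+oil. Without the 4 libraries the counts were 3 higher for oil (2.52%), 1 higher and 1 lower for 9527 (15.6%), 6 lower for 9500+oil (7.16%) and 4 higher and 2 lower for 9527+oil (10.6%).

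The difference between the sexes was tested itself, as the male minus the female log2 fold change. In edgeR 0 members, and 0% of all genes, passed an adjusted p of 0.05 for any treatment. At an unadjusted p under 0.05 there were 2 members for oil (1.65% of all genes), 0 for 9500 (0.726%), 0 for 9527 (0.352%), 0 for 9500+oil (0.509%) and 2 for 9527+oil (2.39%). With a mouse left out, the members for oil were 0 to 3 higher and 0 to 1 lower, and those for 9527+oil 0 to 7 higher (7 without female saline mouse 1). With all mice those for oil were Oas3 (1.97 ± 0.81, edgeR adjusted p = 1) and Rtp4 (1.27 ± 0.56, edgeR adjusted p = 1), and for 9527+oil Oas3 (2.12 ± 0.89, edgeR adjusted p = 0.948) and Oasl2 (1.02 ± 0.43, edgeR adjusted p = 0.948). Oas3 was at 6.09, 7.56 and 29.8 in saline females, the last from mouse 3. Without the 4 libraries its difference was 0.72 ± 0.42 for oil (edgeR adjusted p = 0.771) and 1.05 ± 0.58 for 9527+oil (edgeR adjusted p = 0.747), and that of Oasl2 for 9527+oil was 0.47 ± 0.15 (edgeR adjusted p = 0.732). The counts at an unadjusted p under 0.05 were then 2 higher and 2 lower for oil (5.98% of all genes), 1 lower for 9500 (1.96%), 0 for 9527 (2.81%), 6 higher for 9500+oil (2.63%) and 3 higher for 9527+oil (6.73%), where higher means a larger value in males, and 0 members passed an adjusted p of 0.05. The 6 members for 9500+oil were Irf7 (0.79 ± 0.22), Oasl2 (0.54 ± 0.16), Zbp1 (0.61 ± 0.21), Ifit3 (0.41 ± 0.15), Isg15 (0.92 ± 0.37) and Mx1 (1.01 ± 0.43), each with an edgeR adjusted p of 1. The fold changes of members in 9500 males and in 9500 females were therefore not shown to differ. Without the 4 libraries the 1 lower member for 9500 was Rsad2 (-0.77 ± 0.35, edgeR adjusted p = 1), a share near the 1.96% of all genes. With a mouse left out there were 0 to 2 higher and 0 to 1 lower members for 9500 at an unadjusted p under 0.05.

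Each mixture was also compared with its dispersant alone, over both sexes. In 9500+oil against 9500, 37 of 46 members were positive with a median of 0.12, 0 passed an adjusted p of 0.05 (0% of all genes did), and 0 had an unadjusted p under 0.05 (1.95%). Without female 9500+oil mouse 15, 5 were higher, and without female 9500 mouse 8, 3 were. In 9527+oil against 9527, 27 were positive and 19 negative with a median of 0.06, 0 passed an adjusted p of 0.05 (0.559% of all genes did), and 2 were higher and 1 lower at an unadjusted p under 0.05 (14.1%). They were Oas2 (0.70 ± 0.25, edgeR adjusted p = 0.282), Irgm2 (0.45 ± 0.17, edgeR adjusted p = 0.308) and, lower, Ifit3 (-0.47 ± 0.17, edgeR adjusted p = 0.278), whose product blocks translation of viral RNA with Ifit1. These shares of the members, 4.35% higher and 2.17% lower, were below that of all genes. Without female 9527 mouse 10, 11 members were higher, and the share of all genes was not computed for that fit. Without the 4 libraries 4 were higher and 1 lower for 9527+oil (25.6% of all genes) and 0 for 9500+oil (3.3%).

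Between mice of the same group, some members went up and down together and others did not. After the group mean was taken from each value, the Spearman correlation of a member with the median of the other 45 had a median of 0.45 over the 18 males. It was highest for Ifit1 (0.83), Usp18 (0.74) and Zbp1 (0.74) and lowest for Gbp4 (-0.04), Gbp7 (-0.04) and Stat2 (0.01). Pairs of antiviral effectors had a median of 0.30 over 153 pairs, from close ones such as Oas1a and Oas2 (0.95), Oas2 and Oas3 (0.862) and Mx1 and Trim30a (0.882) to negative ones such as Ifi44 and Oas1a (-0.604). Isg15 and Irf7 were at 0.837. Pairs of IRG genes had a median of 0.51 over 21 pairs, with Igtp and Irgm2 at 0.853, whose annotations overlap. Pairs of 1 IRG gene and 1 antiviral effector had a median of 0.11 over 126 pairs, with pairs of both signs, such as Tgtp1 and Ifit1 (0.765) and Tgtp2 and Oas3 (-0.591). In females these pairs had a median of 0.30 over 18 mice and 0.37 without the 4 libraries, where pairs of IRG genes had 0.57 and pairs of antiviral effectors 0.32. In females the median likeness was 0.27 over 18 mice and 0.50 over the 14 mice without the 4 libraries, where Gbp5 (0.83), Gbp3 (0.81) and Tgtp2 (0.80) were highest. These values describe 18 libraries that share depth, batch and reads between near copies.

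**Figure D5:**
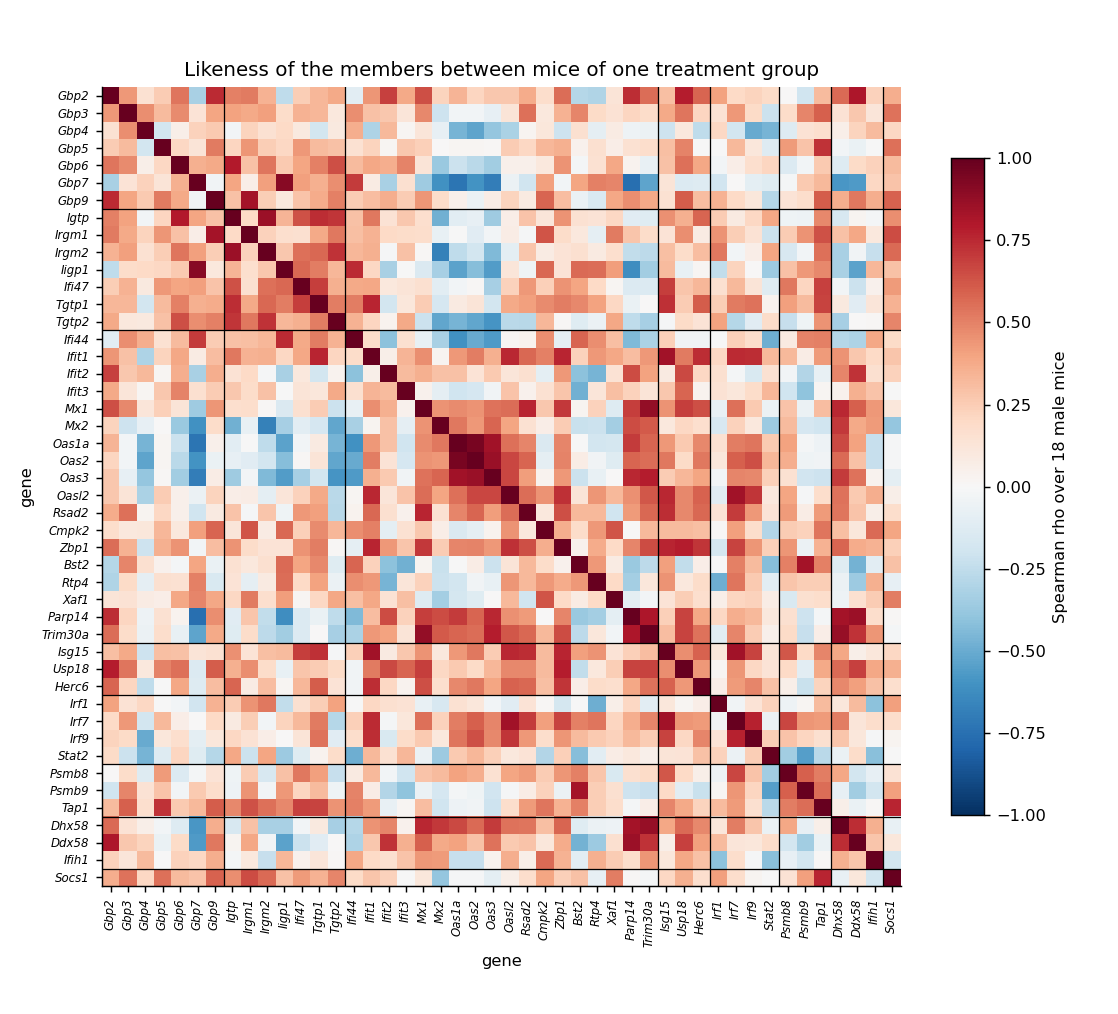
Spearman correlation (colour, -1 to 1) between each pair of the 46 members over the 18 male mice after subtraction of the group means, with genes on both axes in the order of their roles and lines between role groups. The Oas genes form a red block (0.862 to 0.95 for neighbouring pairs named in the text), and cells between IRG genes and antiviral effectors are of both signs, with a median of 0.11.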

How the data were processed

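The authors quantified reads against the mouse transcriptome with Salmon (build GRCm38, both per the submitters' processing notes) and deposited estimated counts per gene, as whole numbers, in 1 table per sex. In each table, 4 rows that shared a name were left out, and 24 names had been turned into dates. Counts were tested with edgeR 4.0.16 in R 4.3.3 (TMM scaling, filterByExpr, quasi-likelihood F-test), with Benjamini-Hochberg adjustment over all genes tested and a threshold of 0.05. Each sex was fitted alone, and both together with sex as a term and, separately, a sex by treatment interaction. Levels are CPM with TMM scaling. There were 22 comparisons. The members, their groups and the pathway and marker lists were chosen with earlier results of these data known. Values of every mouse in the groups concerned are given for members past the threshold and, in each role group, for the 2 with the smallest p over the 15 comparisons with saline (1 in smaller groups). Genes named beyond these were chosen after their values were seen. Alternatives were DESeq2 1.42.0, limma 3.58.1 voom with sample weights, other scaling and filters, a fit over all groups, leaving out each mouse and leaving out the 4 libraries. The functions were tested on simulated data. Depth limits precision as given in counts per library.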

Additional observations from a re-analysis of the deposited data

How the results depend on the processing

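No paired analysis was possible because the mouse numbers run from 1 to 18 across the treatments, so groups compared within a sex share no number. Over 347 alternative fits, 204 of them leaving out a mouse, the 48 gene results followed kept their sign in 686 of 686 values, which says little, since they are those with an unadjusted p under 0.05 with all mice. The count of members past an adjusted p of 0.05, 0 in each comparison with edgeR, became with DESeq2 2 for oil in males, 2 for 9500 in males, 1 for 9527 in males and 1 for 9500 in both sexes. It became 1 for 9527 in males with at least 10 counts required in every mouse. With voom and sample weights it became 1 for the sex by oil interaction (Gbp7, -0.95, adjusted p = 0.0481) and 1 for 9527+oil against 9527 (Oas2, 0.68, adjusted p = 0.046). The median likeness in females went from 0.27 to 0.50 without the 4 libraries. The 15 lower members in 9500 males were 15 to 17 under the alternatives. In both sexes the 6 lower members for 9500 were 5 to 18 (18 with voom), and 4 to 12 with a mouse left out (12 without female saline mouse 3). For oil in males the 5 higher members were 3 to 7, and for 9527 in males the 4 lower were 4 to 6. Female counts, 0 or 1 per treatment, reached 9 higher and 4 lower for oil and 5 lower for 9500. They reached 1 higher and 3 lower for 9527, 8 lower for 9500+oil and 2 higher and 3 lower for 9527+oil. Of the alternatives, only the fits without the 4 libraries were given with a share of all genes. The other counts in this section, and those with a mouse left out, cannot be set against such a share. For 9527+oil against 9527 the 2 higher members were 2 to 8, and 1 to 11 with a mouse left out. For 9500+oil against 9500 the 0 higher members were up to 3 under the alternatives (voom) and up to 5 with a mouse left out. With voom the sex by treatment interactions gave 8 higher and 9 lower members for oil, 4 higher for 9527, 5 higher for 9500+oil and 3 higher for 9527+oil at an unadjusted p under 0.05. Where no value shows the cause, the cause was not tested.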
